A study of Mus musculus with 4 samples.

Results

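A set of 10 cytokine receptor genes, among the 31053 genes of the matrices, was followed through thymic invariant natural killer T (iNKT) cells. They were taken by symbol from the gene list of the matrices, as receptors that divide the iNKT1, iNKT2 and iNKT17 subsets: Il2rb, Il2rg, Il7r, Il4ra, Il12rb2, Il18r1, Il17rb, Il23r, Il6ra and Ifngr1. Because they were listed for that pattern, their levels across subsets are described here without a test, and tests are given only for the genotype differences. The cells were CD1d-tetramer positive thymocytes of untreated mice 8 to 9 weeks old, either C57BL/6 or Hivep3-/- on that background, with 2 mice and 1 library per mouse in each genotype. Hivep3 is a large zinc finger protein that is expressed early in iNKT development. The mutation is present in every cell of the mouse and not only in T cells, and sorting was set to give equal parts of CD44low and CD44high cells, so the sort fixed part of every cell share.

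Cytokine receptors of this group work as pairs of chains that bring Janus kinases (JAK) together, which then phosphorylate STAT transcription factors. The common gamma chain, encoded by Il2rg, serves the receptors for IL-2, IL-4, IL-7, IL-9, IL-15 and IL-21, and the private chains decide which of these cytokines a cell reads. iNKT1 cells depend on IL-15 and produce IFN-gamma, iNKT2 cells produce IL-4 and read IL-25 through the chain encoded by Il17rb, and iNKT17 cells produce IL-17 and read IL-7 and IL-23. IL-18 and IL-25 receptors belong to other families that signal without JAK proteins.

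The promoters of 4 genes are shown because levels of these receptors were uneven between the classes: Il12rb2 was highest in iNKT1-like, Il23r in iNKT17-like and Il6ra in iNKT2-like cells, and Il17rb was shared by iNKT2-like and iNKT17-like cells. They run from 250 bases before to 50 bases after the RefSeq start on GRCm38.p6, the same assembly as mm10, each written 5′ to 3′ on the strand of its gene, which is the minus strand for all 4. The windows are chr6:67376139-67376438 for Il12rb2, chr6:67491806-67492105 for Il23r, chr14:30008847-30009146 for Il17rb and chr3:89913147-89913446 for Il6ra. Capitals mark AGGTGT, the core of the T-box motif that T-bet binds, and AGATAA, bound by GATA factors, each searched on both strands, with no overlap among the matches.
Il12rb2: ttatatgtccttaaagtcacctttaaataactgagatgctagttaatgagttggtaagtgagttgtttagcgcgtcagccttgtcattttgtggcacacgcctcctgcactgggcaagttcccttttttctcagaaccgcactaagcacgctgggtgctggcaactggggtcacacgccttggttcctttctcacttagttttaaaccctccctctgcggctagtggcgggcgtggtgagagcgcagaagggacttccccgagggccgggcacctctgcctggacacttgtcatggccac
Il23r: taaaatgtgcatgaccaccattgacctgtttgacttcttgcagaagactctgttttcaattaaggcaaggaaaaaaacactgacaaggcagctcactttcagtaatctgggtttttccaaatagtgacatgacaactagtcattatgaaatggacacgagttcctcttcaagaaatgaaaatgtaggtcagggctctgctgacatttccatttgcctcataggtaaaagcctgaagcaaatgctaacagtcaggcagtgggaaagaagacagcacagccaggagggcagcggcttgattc
Il17rb: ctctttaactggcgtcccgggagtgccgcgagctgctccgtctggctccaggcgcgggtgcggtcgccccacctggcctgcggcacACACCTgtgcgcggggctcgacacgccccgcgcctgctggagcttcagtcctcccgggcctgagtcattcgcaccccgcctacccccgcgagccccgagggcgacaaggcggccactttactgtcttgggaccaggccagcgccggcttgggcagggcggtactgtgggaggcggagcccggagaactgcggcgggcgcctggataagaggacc
Il6ra: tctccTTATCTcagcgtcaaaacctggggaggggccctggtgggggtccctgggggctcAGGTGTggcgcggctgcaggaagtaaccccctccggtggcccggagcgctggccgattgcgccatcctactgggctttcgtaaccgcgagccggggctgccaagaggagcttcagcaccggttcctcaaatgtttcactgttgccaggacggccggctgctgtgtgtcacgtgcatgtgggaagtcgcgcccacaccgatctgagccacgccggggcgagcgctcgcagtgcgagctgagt
AGGTGT, present in 13.7% of 32851 promoter windows, occurred in Il6ra at position -191 from the start and as its reverse complement in Il17rb at position -164, and not in Il12rb2 or Il23r. The reverse complement of AGATAA, present in 11.2% of windows, stood in Il6ra at position -245. RefSeq windows were at hand for 9 of the 10 receptor genes, and not for Il2rb. Il12rb2 (chromosome 6, 67291318 to 67376188) and Il23r (chromosome 6, 67422932 to 67491855) are neighbours in the mouse genome, separated by 46743 bases, and both lie on the minus strand. On GRCm38, Il2rb (78479256 to 78495271) and Il7r (9505788 to 9530176) lie on chromosome 15, Il4ra on chromosome 7 (125552120 to 125579474), Il18r1 on chromosome 1 (40465552 to 40500854), Il17rb on chromosome 14 (29996135 to 30008896), Il6ra on chromosome 3 (89864059 to 89913196) and Ifngr1 on chromosome 10 (19591949 to 19610229).

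The 4 matrices held 31381738 to 48291764 unique molecular identifiers (UMIs), and 19647 of 22279 barcodes were kept as cells, 3651 to 7231 per library. Pairs of libraries shared 18 to 43 kept barcodes. Libraries differed in sex-linked genes: C57BL/6 replicate 1 had 17330 UMIs of Xist and 0 of 4 Y-linked genes, while the other 3 had 3 to 25 and 4107 to 5590. The study names female mice for its C57BL/6 single-cell experiments and, in its general methods, mice of both sexes. C57BL/6 replicate 2, with 5 UMIs of Xist and 4909 of Y-linked genes, goes against the first statement and not the second. The 1 library with many Xist UMIs is in C57BL/6, so sex was not balanced between the genotypes. Its part in the genotype differences was not tested. Hivep3 itself had 2055 and 1277 UMIs in C57BL/6 and 4459 and 2578 in Hivep3-/- libraries, but reads start at the 5′ end of transcripts and no source used here gives the deleted part of the gene, so this count does not check the labels. Clusters were called stage 0-like, cycling-like, iNKT2-like, iNKT17-like or iNKT1-like from marker genes without any receptor among them. Of the naming markers, Tbx21 was at 95.1 to 130 CPM (UMIs in each 1000000 UMIs) in iNKT1-like cells and at most 28.2 elsewhere. Cd24a was at 73.4 to 129 CPM in stage 0-like cells and at most 7.84 elsewhere. Because both helped to name the clusters, this is no separate check. The 12 iNKT2 markers did not part 2 classes, with sums of 2797 to 3684 CPM in iNKT2-like and 3011 to 3397 CPM in iNKT17-like libraries. Clusters 7 and 13 had no name and held 1.07% to 9.34% of a library's cells. Levels below are CPM of the library's cells in a class, given as C57BL/6 replicates 1 and 2 and then Hivep3-/- replicates 1 and 2.

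The receptors divided the classes unequally. Il23r was an iNKT17-like gene and Il12rb2 an iNKT1-like gene, each close to absent elsewhere. Il2rg was present in every class, at a similar level in all but cycling-like cells, which had less. Il7r rose in steps from stage 0-like to iNKT17-like cells. Stage 0-like cells, the earliest, held Il2rg and Il4ra but hardly any Il18r1, Il6ra, Il12rb2 or Il23r. All 10 genes are shown in the plot of levels by class.

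**Figure D1:**
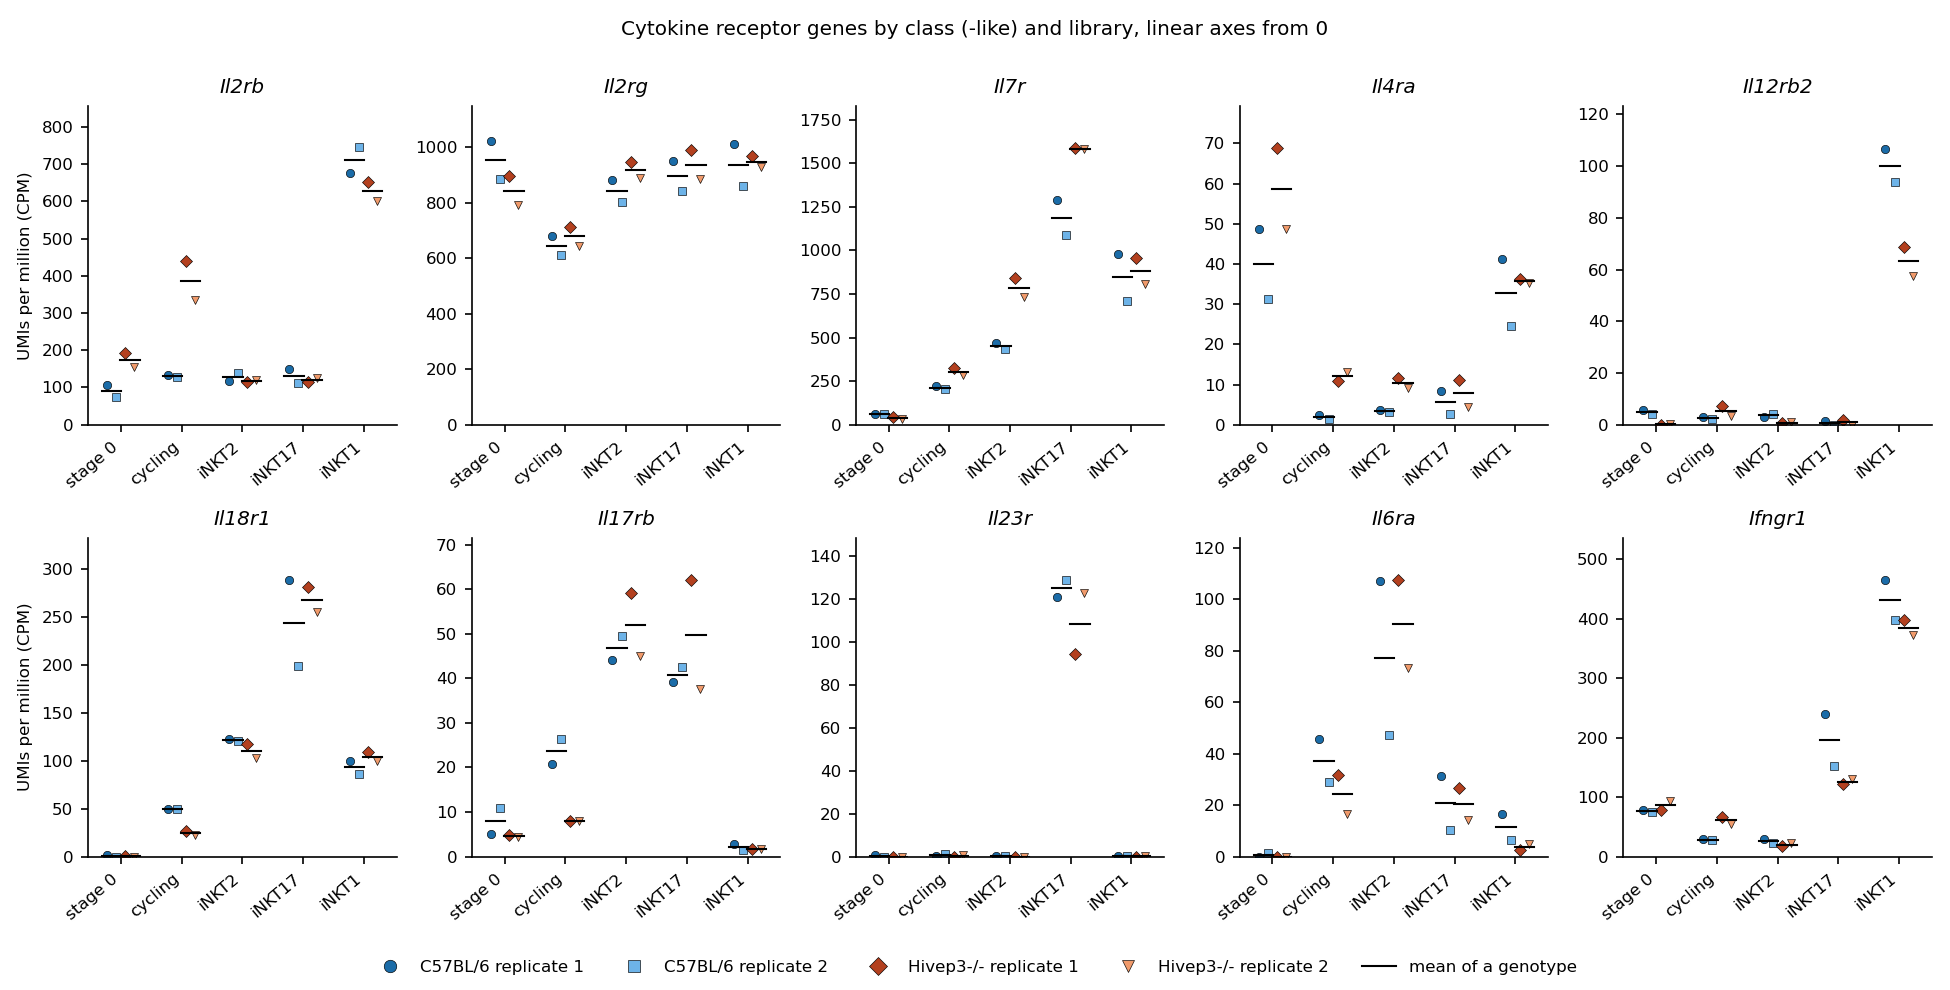
Levels of the 10 receptor genes in 5 classes (horizontal axis) in CPM (vertical axis, linear from 0, its own scale for each gene). Each symbol is 1 library and each line the mean of 2 libraries of a genotype. Il23r lies at 94.5 to 129 CPM in iNKT17-like cells and at most 1.36 CPM in the other classes, and Il2rb of cycling-like cells is the clearest gap between genotypes.

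Among the common gamma chain family, Il2rb, the beta chain shared by the IL-2 and IL-15 receptors, was highest in iNKT1-like cells, at 675, 745, 653 and 602 CPM. The next class, cycling-like cells, had 133 and 128.5 CPM in C57BL/6 and 438.5 and 335 CPM in Hivep3-/- libraries, so no library of it reached the iNKT1-like range. Stage 0-like, iNKT17-like and iNKT2-like cells followed at 74.8 to 193 CPM, and their libraries overlapped. Il2rg (X chromosome, 101264378 to 101268255) averaged 942, 916, 898 and 880 CPM over 4 libraries in iNKT1-like, iNKT17-like, stage 0-like and iNKT2-like cells, neighbours that overlapped in every case. Only cycling-like cells were below that group without overlap, at 612 to 712 CPM. C57BL/6 replicate 1, the library with Xist, had more Il2rg than C57BL/6 replicate 2 in all 5 classes, for example 1011 against 862 CPM in iNKT1-like cells. Replicate 1 was also higher than replicate 2 in all 5 classes of Hivep3-/- (967 against 927 CPM in iNKT1-like cells), where both libraries had Y-linked UMIs, and the part of sex was not tested.

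Il7r, which encodes the alpha chain of the IL-7 receptor, was highest in iNKT17-like cells, at 1288, 1088, 1585 and 1582 CPM. iNKT1-like cells had 979, 712, 957 and 805 CPM, below every iNKT17-like library, and overlapped iNKT2-like cells at 434 to 842 CPM. Cycling-like cells had 204 to 324 CPM and stage 0-like cells 32.0 to 61.2 CPM, each without overlap with the class above. The share of cells with an Il7r UMI, after each cell was thinned to 2000 UMIs, followed the same order, with 91.3% of iNKT17-like and 7.0% of stage 0-like cells as means of 4 libraries (99.8% and 11.5% unthinned). Il4ra, the IL-4 receptor alpha chain, had the opposite lean towards the earliest cells, at 48.7, 31.3, 68.8 and 48.8 CPM in stage 0-like cells. iNKT1-like cells overlapped them at 24.6 to 41.1 CPM, and the iNKT2-like, iNKT17-like and cycling-like classes stayed at 1.498 to 13.1 CPM. iNKT2-like cells, which have Il4 among their markers, were thus among those with the least Il4ra. Within stage 0-like cells Il4ra was uneven: cluster 10, which also carried Cd8b1 and had a median of 2693 UMIs per cell, had a mean of 113 CPM, against 31.4 CPM in cluster 8.

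Among the receptors of type 1 responses, Il12rb2, the signalling chain of the IL-12 receptor, was at 107, 93.7, 68.9 and 57.5 CPM in iNKT1-like cells and at most 7.39 CPM in any library of the other 4 classes, a 20.2-fold step of means to the next class. A UMI was found in 14.9% of thinned iNKT1-like cells and in 0.115% of iNKT17-like cells, the class with the lowest share (31.0% and 0.414% unthinned), although iNKT17-like cells were the deeper, with a median of 5693 to 8244 UMIs against 3549 to 6474. Ifngr1, the ligand-binding chain of the IFN-gamma receptor, was also highest in iNKT1-like cells, at 465, 397, 397 and 373 CPM, followed without overlap by iNKT17-like (121 to 239 CPM) and stage 0-like cells (74.8 to 93.5 CPM). iNKT2-like cells had the least, at 17.1 to 28.7 CPM. Il18r1, the binding chain for IL-18, was not an iNKT1-like gene in this sense: iNKT17-like cells led at 288, 198, 281 and 254 CPM, and iNKT2-like (102 to 123 CPM) and iNKT1-like cells (86.2 to 109 CPM) overlapped. It was nearly off in stage 0-like cells, with 3 UMIs in the 4 libraries together (0.412 CPM), against 1416 UMIs in cycling-like cells at 22.9 to 49.8 CPM.

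Among the receptors of type 2 and type 17 responses, Il17rb, a chain of the IL-25 receptor, was shared by iNKT2-like cells, at 44.1, 49.4, 59.1 and 44.9 CPM, and iNKT17-like cells, at 39.1, 42.6, 62.0 and 37.6 CPM. These classes overlapped, and iNKT1-like cells were lowest at 1.58 to 2.89 CPM. Il23r, the private chain for IL-23, was at 121, 129, 94.5 and 123 CPM in iNKT17-like cells. Elsewhere it was counted 17 times in cycling-like, 4 times in iNKT1-like, 2 times in iNKT2-like and 1 time in stage 0-like cells, in all 4 libraries together. Thinned, 18.7% of iNKT17-like cells had an Il23r UMI against 0.0077% of iNKT1-like cells (52.7% and 0.0277% unthinned). Il6ra, the alpha chain of the IL-6 receptor, was highest in iNKT2-like cells, at 107.2, 47.3, 107.4 and 73.4 CPM, and had 1 UMI in stage 0-like cells. Its mice differed within a genotype: C57BL/6 replicate 1 had 1.58 to 3.09 times the level of replicate 2 in the 4 classes that held it, and in Hivep3-/- cells the ratio was 1.46 to 1.92 in 3 of these classes and 0.501 in iNKT1-like cells.

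At the level of clusters, the 5 clusters of iNKT1-like cells were alike in Il12rb2 (means of 76.6 to 87.3 CPM) but not in Il18r1, which ran from 63.7 CPM in cluster 2, led by Ccl1, Gzmb and Ccl4, to 132 CPM in cluster 3, led by Ccl5 and Gzma. Ifngr1 had the same 2 ends, at 296 and 533 CPM. Cycling-like cluster 14, with 89 cells, had 50.2 CPM of Il12rb2 and 222 CPM of Ifngr1, while the other 3 cycling-like clusters had 1.4 to 3.3 and 28.7 to 44.5 CPM. The heat map of cluster means shows this break inside the cycling-like class.

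**Figure D2:**
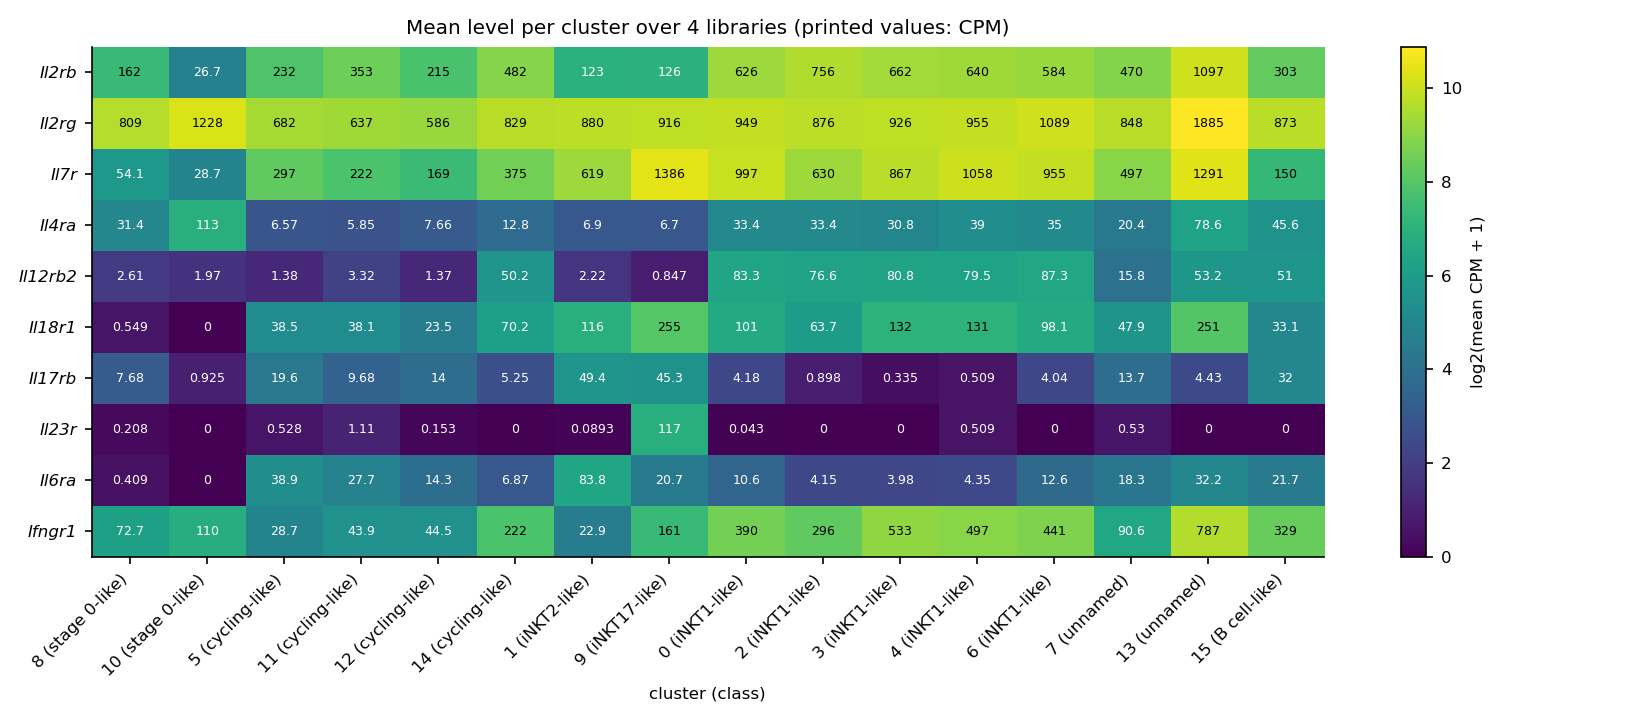
Mean CPM over 4 libraries of each receptor gene (rows) in each of 16 clusters (columns, with class names). Colour is log2(mean CPM + 1) and the printed figures are CPM. Il23r is high in cluster 9 at 117 CPM, Il17rb in clusters 1 and 9 at 49.4 and 45.3 CPM, and Il6ra in cluster 1 at 83.8 CPM.

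The genes whose pattern was most like each receptor were taken by Pearson correlation of log2(CPM + 10) over the 20 sums of 5 classes by 4 libraries, among the 5306 genes that averaged 20 CPM or more. These are descriptions, since the 20 sums come from 4 libraries and the same clusters. Il23r followed Serpinb1a (r = 0.998), Il1r1 (0.998) and Il17re (0.997), of which Serpinb1a was itself an iNKT17 marker used for naming, and Il1r1 and Il17re encode chains of the IL-1 and IL-17C receptors. Il12rb2 followed Klra9 (0.978), Hopx (0.964) and Fasl (0.958), and Il2rb followed Dock11 (0.935), Klre1 (0.934) and Efhd2 (0.929), with Klra9, Klre1 and Fasl again among the naming markers. Il7r was closest to Itgae (0.979), Grap2 (0.978) and Ltb (0.975), and Il18r1 to Ly6a (0.983), Maf (0.981) and Itm2b (0.978). Il17rb was closest to Tnfsf11 (0.891), Eng (0.885) and Ifngr2 (0.884), the second chain of the IFN-gamma receptor. Ifngr1 itself was closest to Txk (0.928), Tsc22d3 (0.851) and Gpr171 (0.844). Il4ra was closest to Bcl2 (0.927), Tmem131l (0.927) and Cd69 (0.916), Il2rg to 4932438A13Rik (0.942), Pink1 (0.886) and Mycbp2 (0.876), and Il6ra, with the weakest match, to Lbh (0.848), Scamp3 (0.841) and Fam3c (0.837).

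The genotype comparison asked whether the receptor genes differ between Hivep3-/- and C57BL/6 cells of the same class. Each difference is the log2 ratio of Hivep3-/- to C57BL/6 from edgeR's quasi-likelihood test on summed UMIs, given ± a standard error (SE). The test returns no SE, so it was taken as the absolute log2 ratio divided by the square root of the test's F statistic. A gene was called at a Benjamini-Hochberg adjusted p under 0.05 over all genes tested. With 2 mice a genotype, an exact permutation test of a single value cannot go below p = 0.333, so the calls rest on the spread shared across genes.

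The receptor genes that passed the test within a class were all in cycling-like cells. Of the 9 receptor genes tested there, 3 rose in Hivep3-/- (Il2rb, Il4ra and Ifngr1) and 2 fell (Il17rb and Il18r1), where 2.93% of the 10369 genes tested were called. Il2rb, at 133 and 128.5 CPM in C57BL/6 and 438.5 and 335 CPM in Hivep3-/- cells, rose by 1.40 ± 0.15 (2.64-fold, adjusted p 0.00434, edgeR). Il4ra was low in both genotypes, at 2.51 and 1.498 against 10.9 and 13.1 CPM, and rose by 2.36 ± 0.34 (5.14-fold, adjusted p 0.0143). Ifngr1 went from 29.1 and 27.2 to 66.2 and 55.4 CPM, a log2 difference of 0.94 ± 0.16 (adjusted p 0.0280). The lowest Hivep3-/- library exceeded the highest C57BL/6 library in each of these 3 genes. Il17rb fell from 20.8 and 26.4 to 8.04 and 8.02 CPM (log2 difference -1.70 ± 0.23, adjusted p 0.0137), and Il18r1 from 49.1 and 49.8 to 27.0 and 22.9 CPM (log2 difference -1.15 ± 0.17, adjusted p 0.0155), again with no overlap. Il2rg, at 612 to 712 CPM, had a log2 difference of -0.09 ± 0.11, and Il12rb2, Il7r and Il6ra had 0.81 ± 0.42, 0.36 ± 0.12 and -0.83 ± 0.33, none of them called. The median difference of the 9 receptor genes was 0.36, against 0.03 for all genes tested.

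Only Il2rb stayed called with any 1 of the 4 libraries left out. The calls of Il4ra and Il17rb were lost without either Hivep3-/- library (adjusted p 0.0521 and 0.103 for Il4ra, 0.0618 and 0.0774 for Il17rb), that of Ifngr1 without any 1 library (adjusted p 0.0682 to 0.143), and that of Il18r1 without either C57BL/6 library or Hivep3-/- replicate 2 (adjusted p 0.0552 to 0.06995). The signs did not change in these fits. The share of all genes called in cycling-like cells was also lower in each of them than in the main fit, so the lost calls are not particular to the receptors.

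The mix of cycling-like cells moved with genotype as well. Cluster 14 made up 1.26% and 2.71% of this class in C57BL/6 and 15.6% and 5.08% in Hivep3-/- libraries. Of the 12 iNKT1 markers, 4 rose and 0 fell, with a summed level of 501 and 513 CPM in C57BL/6 and 1732 and 1006 CPM in Hivep3-/- cells. Of the 10 late iNKT1 markers, 4 rose and 0 fell (268 to 295 against 831 to 2001 CPM), and of the 12 iNKT2 markers 5 fell and 0 rose (2645 to 2725 against 1793 to 1941 CPM), and no marker of these 3 lists was at 0. The 12 stage 0 markers, of a class in which Il4ra was high, summed to 1463 and 1328 against 2440 and 2270 CPM, with 1 (Sox4) called higher and 0 lower. Without cluster 14 the differences were 1.40 ± 0.15 for Il2rb, 2.54 ± 0.38 for Il4ra, -1.59 ± 0.24 for Il17rb and -1.36 ± 0.17 for Il18r1, all still called, while Ifngr1 had 0.69 ± 0.18 with an adjusted p of 0.1055 and Il12rb2 turned from 0.81 to -0.24 ± 0.60. Within clusters 5, 11 and 12, Il2rb was at 115 to 156 CPM in C57BL/6 and 267 to 676 CPM in Hivep3-/- libraries, with no overlap in any of the 3, whereas in cluster 14 the Hivep3-/- libraries (562 and 532 CPM) were close to C57BL/6 replicate 2 (520 CPM) and above replicate 1 (315 CPM). How far the marker shift within these clusters takes part in the receptor differences was not tested.

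**Figure D3:**
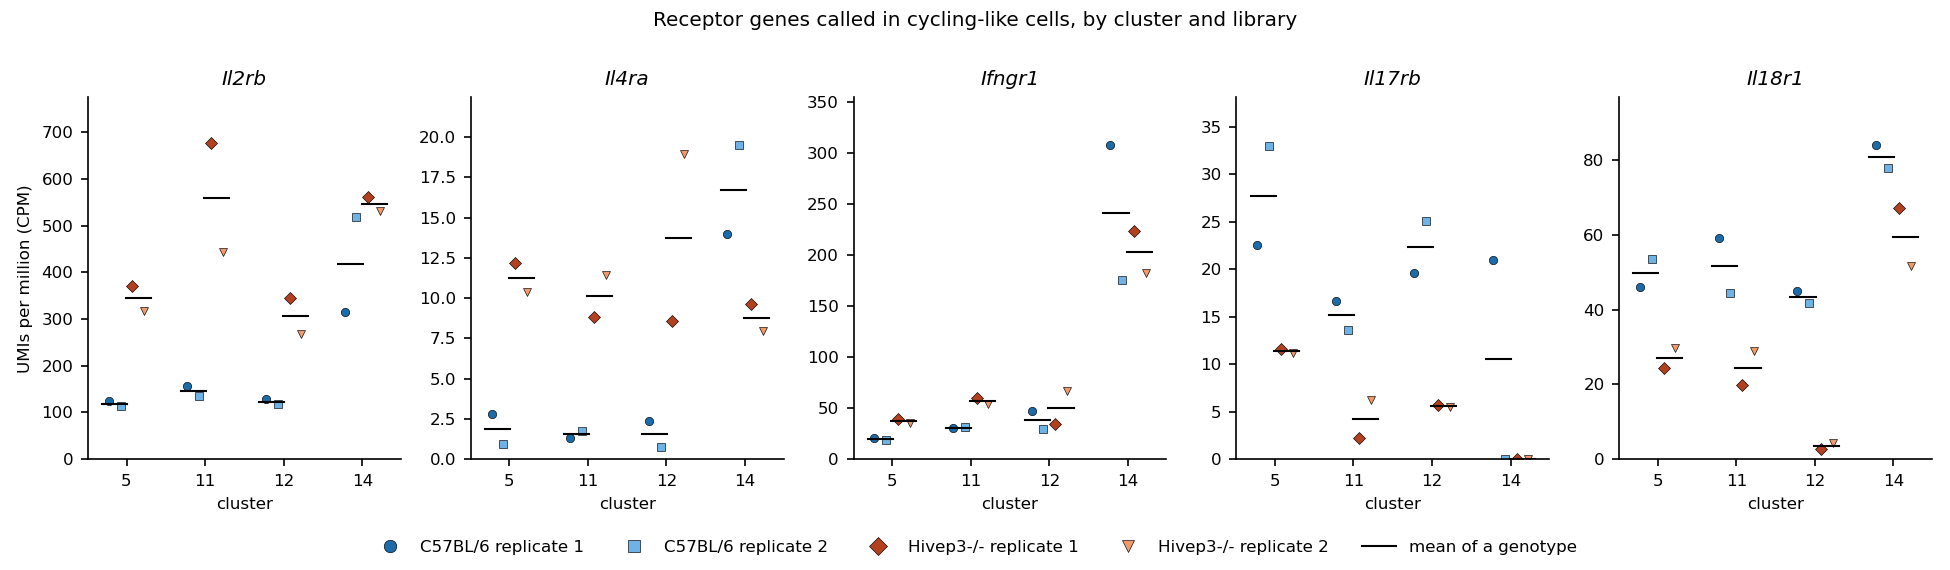
Levels in CPM (vertical axis, linear from 0) of the 5 receptor genes called in cycling-like cells, in the 4 clusters of that class (horizontal axis). Each symbol is 1 library and each line the mean of 2 libraries. In clusters 5, 11 and 12 the Hivep3-/- libraries lie above C57BL/6 for Il2rb and Il4ra and below for Il17rb and Il18r1. Cluster 14 does not share this for Il4ra or Il17rb. For Ifngr1 the genotypes overlap in cluster 12, and the cluster 14 means are 242 CPM in C57BL/6 and 203 CPM in Hivep3-/-.

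In iNKT2-like cells 0 of the 9 receptor genes tested were called by edgeR (3 had an unadjusted p under 0.05, and DESeq2 called 1), where 0.232% of genes were called. Of all 9476 genes tested there, 822 had an unadjusted p under 0.05 in edgeR. The largest gap relative to its error was in Il7r, at 469 and 434 CPM in C57BL/6 and 842 and 731 CPM in Hivep3-/- cells, with a log2 difference of 0.71 ± 0.13 and an adjusted p of 0.0938. DESeq2 gave 0.69 with an adjusted p of 0.00846, and edgeR called it without Hivep3-/- replicate 2 (0.74, adjusted p 0.0395). Il4ra had 3.75 and 3.103 against 11.7 and 9.08 CPM (log2 difference 1.47 ± 0.31, adjusted p 0.172), and Il12rb2 had 48 UMIs in C57BL/6 and 6 in Hivep3-/- cells, a CPM ratio of 0.234 (95% exact interval 0.0819 to 0.548, for counting error alone). The libraries of the genotypes did not overlap in any of these 3. They also did not overlap in Il18r1 (-0.24 ± 0.13) or Il2rg (0.04 ± 0.12), so a lack of overlap is no mark of a difference here. Il6ra, highest in this class, and Il17rb, shared with iNKT17-like cells, had differences of 0.11 ± 0.33 and 0.07 ± 0.17, and their libraries overlapped.

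In iNKT1-like cells 0 of the 9 tested were called by edgeR (2 at an unadjusted p under 0.05, 2 by DESeq2), where 0.83% of genes were called. Of all 10838 genes tested there, 981 had an unadjusted p under 0.05 in edgeR. Il12rb2 was lower in both Hivep3-/- libraries, at 68.9 and 57.5 against 107 and 93.7 CPM, a log2 difference of -0.75 ± 0.13 with an adjusted p of 0.0706, and of -0.75 with an adjusted p of 0.00541 by DESeq2. The clusters of this class were mixed differently: cluster 0 held 48.6% and 45.6% of iNKT1-like cells in C57BL/6 and 22.4% and 23.1% in Hivep3-/- libraries, which had more in clusters 2 and 3. Inside the 5 clusters Hivep3-/- libraries had 51 to 76 CPM of Il12rb2 and C57BL/6 libraries 85 to 112 CPM, without overlap in any of them. The part of the mix in the difference was not tested. Il6ra had 16.5 and 6.30 against 2.36 and 4.72 CPM (log2 difference -1.79 ± 0.52, adjusted p 0.272), and was called without C57BL/6 replicate 2 (-2.32, adjusted p 0.0259). Il2rb and Ifngr1, both abundant in this class, had differences of -0.26 ± 0.13 and -0.24 ± 0.14, and Il7r, Il4ra, Il18r1 and Il2rg lay between -0.06 and 0.08.

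**Figure D4:**
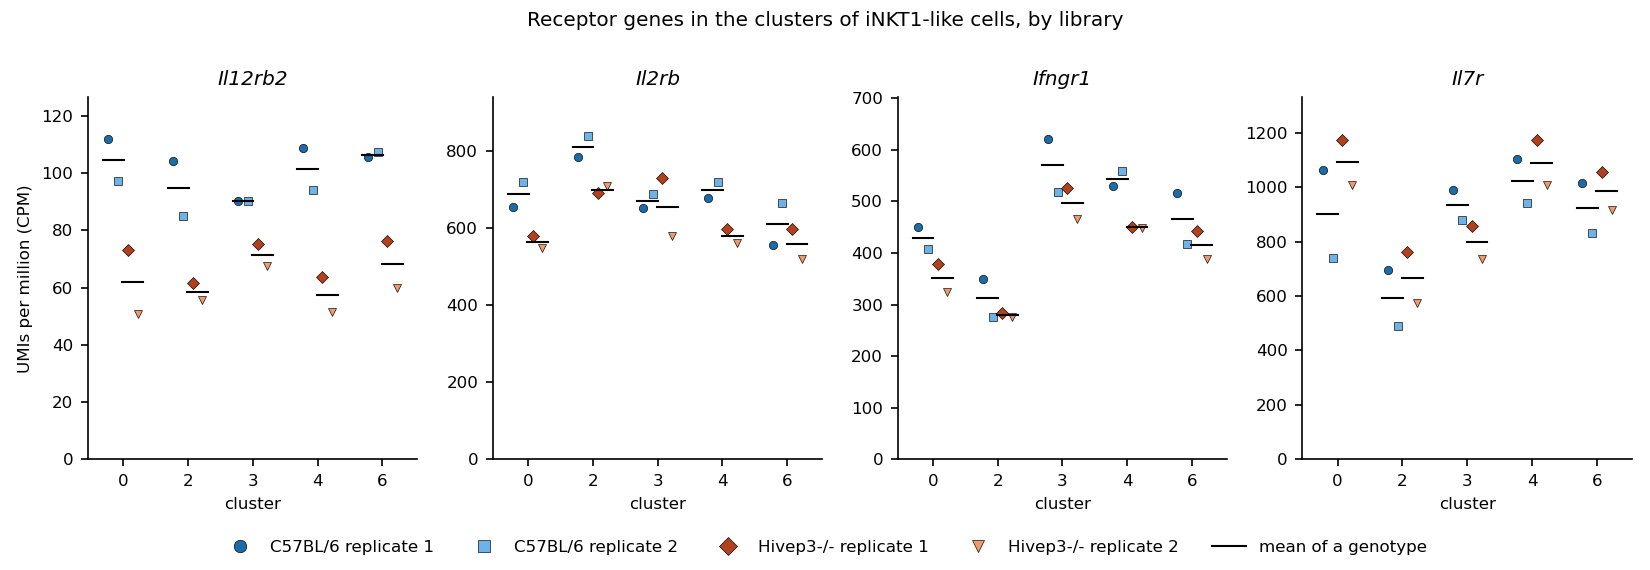
Levels in CPM (vertical axis, linear from 0) of 4 receptor genes in the 5 clusters of iNKT1-like cells (horizontal axis). Each symbol is 1 library and each line the mean of 2 libraries. The Hivep3-/- libraries lie below both C57BL/6 libraries for Il12rb2 in all 5 clusters, and the genotypes overlap for Il7r in all but cluster 3.

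In stage 0-like cells 0 of the 6 receptor genes tested were called by edgeR (2 at an unadjusted p under 0.05, 0 by DESeq2), where 0.361% of genes were called. Of all 8871 genes tested there, 760 had an unadjusted p under 0.05 in edgeR. Il2rb had 107 and 74.8 CPM in C57BL/6 and 193 and 155 CPM in Hivep3-/- cells, a log2 difference of 0.77 ± 0.19 with an adjusted p of 0.171. It was called without C57BL/6 replicate 1 (1.07, adjusted p 0.0125) and without Hivep3-/- replicate 2 (0.87, adjusted p 0.0179). Il7r had 58.8 and 61.2 against 43.3 and 32.0 CPM, a difference of -0.79 ± 0.22 with an adjusted p of 0.233. The genotypes did not overlap in either gene. They also did not overlap in Il4ra (0.37 ± 0.25), Il17rb (-0.74 ± 0.53) or Ifngr1 (0.05 ± 0.19), so this does not set Il2rb and Il7r apart. Il12rb2 was not tested here, with 12 UMIs in C57BL/6 and 1 in Hivep3-/- cells (ratio 0.0388, 95% exact interval 0.000908 to 0.262). That interval covers counting error alone and leaves out the spread between mice. In iNKT17-like cells 0 of the 8 tested were called by edgeR (2 at an unadjusted p under 0.05, 0 by DESeq2), where 0.0659% of genes were called. Of all 7588 genes tested there, 424 had an unadjusted p under 0.05 in edgeR. Il23r was at 121 and 129 against 94.5 and 123 CPM (log2 difference -0.27 ± 0.21), and Ifngr1 at 239 and 152 against 121 and 131 CPM (-0.71 ± 0.22, adjusted p 0.518). Ifngr1 was called in this class without C57BL/6 replicate 2 (-0.98, adjusted p 0.0188). The libraries of this class held 125 to 217 cells of at least 2000 UMIs.

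Over all kept cells 0 of the 10 receptor genes were called by edgeR (4 at an unadjusted p under 0.05, 2 by DESeq2), where 0.765% of genes were called. Of all 12291 genes tested there, 1472 had an unadjusted p under 0.05 in edgeR. The mix of classes also differed between genotypes, and its part in the values over all cells was not tested: cycling-like cells were 19.7% and 13.1% of C57BL/6 but 5.31% and 9.46% of Hivep3-/- cells, and stage 0-like cells 4.94% and 3.23% against 8.18% and 9.86%. Il17rb had 21.1 and 18.3 against 10.5 and 10.1 CPM (log2 difference -1.03 ± 0.17, adjusted p 0.0615, and 0.000428 by DESeq2). Its difference was -1.70 within cycling-like, 0.21 within iNKT17-like and 0.07 within iNKT2-like cells. Il4ra had 16.4 and 13.9 against 32.1 and 26.6 CPM (0.86 ± 0.17, adjusted p 0.0961, and 0.00970 by DESeq2). Il6ra had 49.3 CPM in C57BL/6 replicate 1 and 15.6 to 19.1 CPM in the other 3 libraries (-1.16 ± 0.40, adjusted p 0.320). Without C57BL/6 replicate 2 it was called (-1.67, adjusted p 0.0217).

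**Figure D5:**
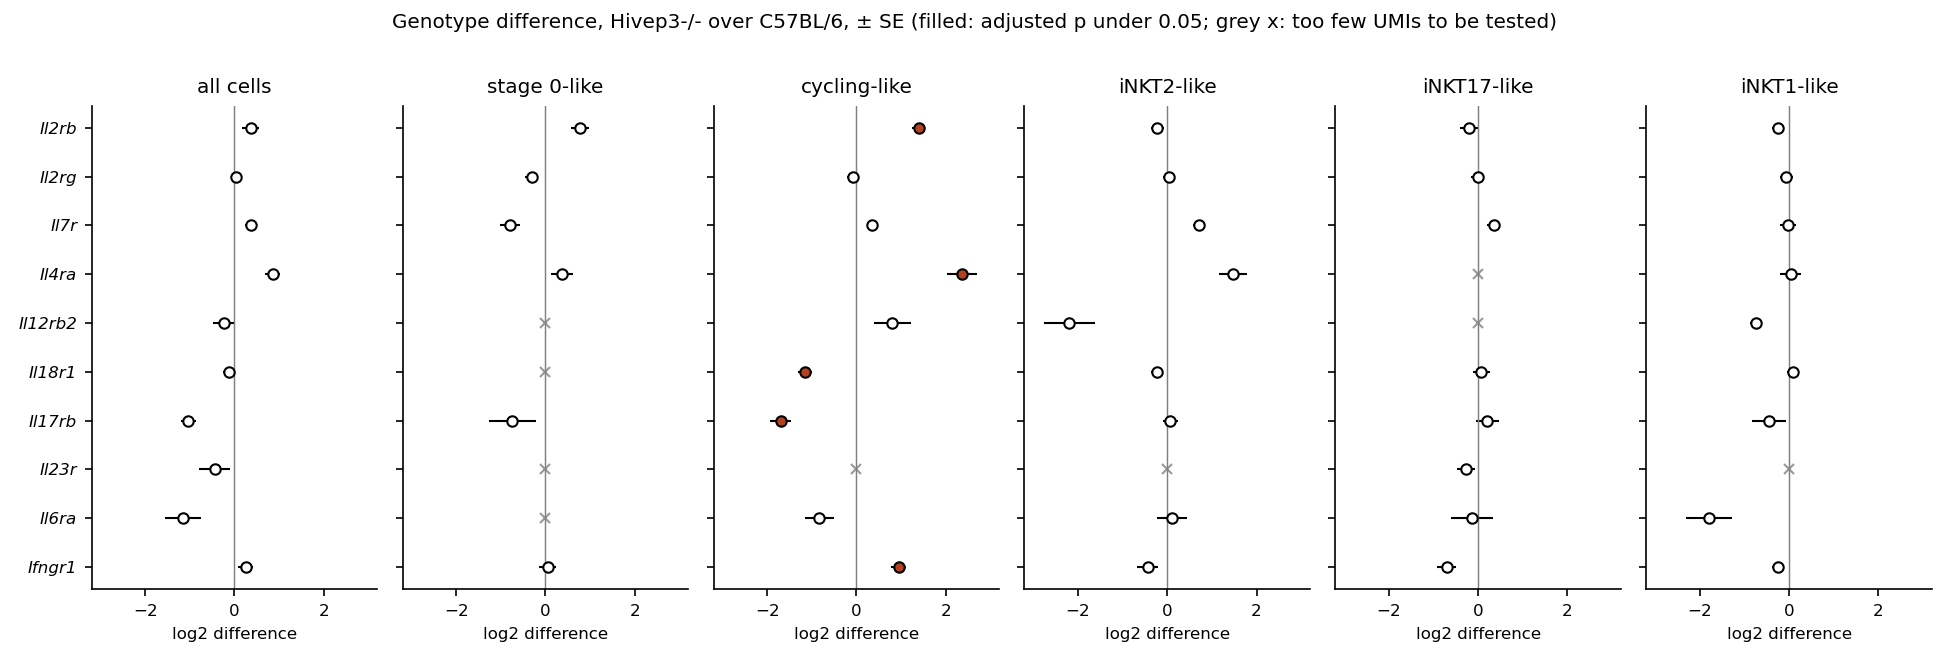
Log2 difference of Hivep3-/- over C57BL/6 with its SE (horizontal axis) for each receptor gene (vertical axis), over all cells and in 5 classes. Filled points passed an adjusted p of 0.05 in edgeR and grey crosses mark genes with too few UMIs to be tested. The 5 filled points are all in cycling-like cells.

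Whether a genotype difference itself differed between classes was tested with an interaction term and the library as a block. Between stage 0-like and iNKT1-like cells, 3 of 9 receptor genes passed (Il2rb, Il7r and Il12rb2), where 3.3% of genes were called. The Il2rb difference was higher in stage 0-like cells by 0.99 ± 0.15 (adjusted p 7.06e-05, edgeR), and that of Il7r lower, at -0.73 ± 0.18 (adjusted p 0.0159). The term of Il12rb2 (-3.90 ± 0.97, adjusted p 0.0180) rests on the 13 UMIs of stage 0-like cells, and was lost without C57BL/6 replicate 1 (adjusted p 0.333) or Hivep3-/- replicate 1 (adjusted p 0.204). That of Il7r was lost without C57BL/6 replicate 2 (adjusted p 0.159) or Hivep3-/- replicate 2 (adjusted p 0.0929), and at clustering resolution 1.2 (-0.52, adjusted p 0.156), whereas Il2rb passed in each of those fits.

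Between iNKT2-like and iNKT1-like cells, 3 of 9 passed (Il7r, Il4ra and Il6ra), where 5.15% of genes were called, each with the higher difference in iNKT2-like cells. The terms were 0.70 ± 0.08 for Il7r (adjusted p 4.91e-07), 1.52 ± 0.28 for Il4ra (adjusted p 0.000477) and 1.96 ± 0.25 for Il6ra (adjusted p 1.97e-06, all edgeR). For Il6ra, Hivep3-/- replicates 1 and 2 had 107.4 and 73.4 CPM in iNKT2-like but 2.36 and 4.72 CPM in iNKT1-like cells. C57BL/6 replicates had 107.2 and 47.3 against 16.5 and 6.30 CPM. The Hivep3-/- mice thus differed in the gap between classes, and the SE leans on the spread shared across genes. Il7r and Il6ra passed with any 1 library left out, and Il4ra was lost without C57BL/6 replicate 1 (1.14, adjusted p 0.156). So Il7r differed between the genotypes in iNKT2-like relative to iNKT1-like cells, where its own difference was -0.02 ± 0.18.

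The partner chains that complete these receptors were followed in the same fits. Il12rb1, the chain shared by the IL-12 and IL-23 receptors, was present in every class, from 8.62 CPM in stage 0-like to 64.8 CPM in iNKT17-like cells as means of 4 libraries. Il18rap, the IL-18 receptor accessory chain, was at 0.938 CPM in stage 0-like and 57.7 CPM in iNKT1-like cells. Ifngr2 had the reverse order of Ifngr1 between iNKT2-like and iNKT1-like cells and was also high in iNKT17-like cells, with 19.9 to 59.95 CPM in iNKT2-like and 31.5 to 61.1 CPM in iNKT17-like libraries, while no iNKT1-like library exceeded 1.53 CPM. Il6st, the signal chain of the IL-6 receptor, was highest where Il6ra was absent, at 28.5 CPM in stage 0-like cells against 3.26 to 4.19 CPM in the other classes. Il2ra was at most 57.4 CPM in a library and highest in iNKT17-like cells, with a mean of 23.8 CPM, Il17ra lay at 17.6 to 29.8 CPM in all classes, Il15ra at 0.2 to 7.76 CPM, and Il13ra1 did not pass 0.441 CPM. Of 29 tests of the 8 partner chains in the 5 classes, 0 were called between genotypes by edgeR (8 at an unadjusted p under 0.05, and DESeq2 called Il12rb1 in cycling-like cells). Of all genes tested, 1792 of 10369 were under that unadjusted p in cycling-like cells. In stage 0-like cells 760 of 8871 were, and in iNKT2-like cells 822 of 9476. In iNKT17-like cells 424 of 7588 were, and in iNKT1-like cells 981 of 10838. The partner chains nearest to a call in edgeR were Il6st (2.08 ± 0.44, adjusted p 0.0548) and Il12rb1 (-1.10 ± 0.24, adjusted p 0.0637), both in cycling-like cells.

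Of 29 other cytokine receptor genes, 15 were tested in cycling-like cells, where 2 rose and 1 fell, beside 2.93% of all genes called. Il10ra, a chain of the IL-10 receptor, had 1.98 and 1.63 CPM in C57BL/6 and 18.7 and 19.4 CPM in Hivep3-/- cells (log2 difference 3.203 ± 0.27, adjusted p 0.00234), and Il9r had 2.21 and 1.91 against 12.5 and 11.01 CPM (2.32 ± 0.29, adjusted p 0.0103). Il17re fell from 3.15 and 2.72 to 0.322 and 0.560 CPM (-2.77 ± 0.56, adjusted p 0.0473). DESeq2 called Il10ra and Il9r but not Il17re, and also Il21r in cycling-like cells (1.02 by edgeR, adjusted p 0.0947). Of 53 tests of 11 JAK and STAT genes over the 5 classes, 0 were called by edgeR (6 at an unadjusted p under 0.05, 0 by DESeq2), and of 10 feedback and target genes only Socs3, a suppressor of cytokine signalling, in cycling-like cells (2.21 and 1.09 against 9.65 and 19.8 CPM, 2.93 ± 0.46, adjusted p 0.0197). Of 42 tests of these feedback genes over the 5 classes 10 had an unadjusted p under 0.05, and DESeq2 made 4 calls (Socs3, Bcl2 and Socs1 in cycling-like and Socs1 in iNKT2-like cells). The unadjusted counts of both lists stand beside the numbers of all genes given above with the partner chains. In cycling-like cells the median differences were 0.40 for the other receptors, 0.27 for the JAK and STAT genes and 0.41 for the feedback genes, beside 0.03 for all genes tested. Each interaction tested 7 partner chains, 13 other receptors, 11 JAK and STAT genes and 10 feedback genes. That of iNKT2-like against iNKT1-like cells, where 5.15% of all genes were called, called Il21r (0.87 ± 0.16, adjusted p 0.00068), Jak1 (0.33 ± 0.09, adjusted p 0.0225), Socs1 (0.99 ± 0.11, adjusted p 9.8e-08) and Bcl2 (0.93 ± 0.15, adjusted p 8.11e-05) upwards. Pim1 was called downwards (-0.59 ± 0.15, adjusted p 0.0184, all edgeR). In the interaction of stage 0-like against iNKT1-like cells 3.3% of all genes were called. Il21r was again higher (0.51 ± 0.13, adjusted p 0.0269), while Bcl2 had the opposite sign (-0.67 ± 0.16, adjusted p 0.0114). All of these terms share the iNKT1-like libraries.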

How the data were processed

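Thymic iNKT cells of 2 C57BL/6 and 2 Hivep3-/- mice were sequenced from droplets with 5′ chemistry. The deposited UMI counts per gene and barcode are not normalized and came from Cell Ranger 3.1.0 on mm10, per the labels. Barcodes with at least 500 and under 4100 genes, at least 1000 UMIs and under 6% mitochondrial UMIs were kept as cells. Cells were log-normalized in Seurat 5.3.0, libraries were joined by a mutual nearest neighbour correction over 20 neighbours on 30 components of 2000 variable genes, and Louvain clusters were taken at resolution 0.8. Variable genes excluded the receptors, Hivep3, sex-linked genes, 26 genes named in the study and T cell receptor segments. Cluster names came from marker lists by a scoring rule set after the data were seen. The cluster led by interferon-response genes was named iNKT1-like from its mean marker levels. Scrublet (scanpy 1.11.5) marked only 2 to 4 cells per library and so did not work here, and doublets were kept. The receptors and all gene lists were chosen with earlier results of these data known.

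Genotypes were compared on summed counts per library and class with edgeR 4.0.16 (filterByExpr, TMM, quasi-likelihood test, two-sided, checked on simulated data). DESeq2 1.42.0, no filter on low counts, other clusterings, removal of the 5% of cells with the highest doublet score, and each library left out were alternatives. Named genes were the 10 receptors, 8 partner chains, genes of the other lists that were called, and the 3 genes of most similar pattern to each receptor. Depth set the precision: class sums held 1 to 56768 UMIs of a receptor over 4 libraries. Mice are the replicates, and cells are not. Matches by gene symbol and identifier were found for all 10 receptors in the GENCODE M21 annotation, and 9 had a RefSeq promoter window. For Il2rb none was used here. One of the naming markers is not reported here.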

Additional observations from a re-analysis of the deposited data

Results flagged for a closer look

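A genotype difference that differed between 2 classes flagged 6 results, each by an edgeR interaction term with the library as a block. Between stage 0-like and iNKT1-like cells, these were Il2rb (0.99), Il7r (-0.73) and Il12rb2 (-3.90). Stage 0-like cells of Hivep3-/- had 193 and 155 CPM of Il2rb against 107 and 74.8 CPM in C57BL/6, while iNKT1-like cells had 653 and 602 against 675 and 745 CPM. Between iNKT2-like and iNKT1-like cells, these were Il6ra (1.96), Il4ra (1.52) and Il7r (0.70). For Il6ra the difference was 0.11 ± 0.33 in iNKT2-like and -1.79 ± 0.52 in iNKT1-like cells, neither of which was called alone. iNKT1-like cells had 16.5 and 6.30 CPM in C57BL/6 against 2.36 and 4.72 CPM in Hivep3-/- libraries, so mice differed within each genotype. Groups of 2 libraries are too small for a search for outlying libraries.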

How the results depend on the processing

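The number of receptor genes called depended on the fit over all cells and in stage 0-like, cycling-like, iNKT2-like and iNKT1-like cells. The cause was not tested. In iNKT17-like cells it was 0 in every fit with all 4 libraries. Without a filter on low counts edgeR called 3 over all cells, 2 in stage 0-like, 3 in iNKT2-like and 2 in iNKT1-like cells, against 0 with the filter, and made 24 calls in the 4 other lists in place of 4, a gene counting once in each class. The share of all genes called rose as well, to 5.46%, 1.6%, 2.28% and 3.08% from 0.765%, 0.361%, 0.232% and 0.83%. DESeq2 called 2 over all cells (2.28% of all genes), 1 in iNKT2-like (0.426%), 2 in iNKT1-like cells (1.25%) and made 8 list calls. Without any filter on cells 1 was called over all cells (1.58% of all genes), and at resolution 1.2 it was 1 in iNKT2-like cells (0.452%), with 7 list calls. Without a correction between libraries 1 list call was made and Il18r1 of cycling-like cells was not (-0.77, adjusted p 0.131, edgeR). In cycling-like cells 4 to 6 receptor genes were called in these settings and with the highest doublet scores removed, and 5 in the main fit. The share of all genes called there was 2.18% to 6.59%, and 2.93% in the main fit.

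The labels give separate mice and do not say whether same-numbered libraries of the genotypes were handled together. Replicate numbers were therefore not used as pairs in the main fit, and a shared batch was not tested. With the replicate block 1 was called over all cells (Il17rb, adjusted p 0.0458), 1 in stage 0-like cells (Il2rb, adjusted p 0.00753), 6 in cycling-like cells, with 14 list calls, by edgeR. The share of all genes called was 1.72%, 2.31% and 6.23% in these fits, against 0.765%, 0.361% and 2.93% without the block. Deviations of same-numbered libraries correlated at 0.11 to 0.237 across genes.

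With each library left out in turn, the receptor genes called numbered 0 to 1 over all cells and in stage 0-like, iNKT2-like, iNKT17-like and iNKT1-like cells, 1 to 3 in cycling-like cells, and the list calls 3 to 12. The share of all genes called moved as well. In cycling-like cells it was below that of the main fit whichever library was left out. In stage 0-like, iNKT2-like and iNKT17-like cells it was above, and over all cells and in iNKT1-like cells it went both ways. Each of these fits leaves 1 library in a genotype, so their counts cannot be set against those of the main fit. Of the 30 genes of most similar pattern 16 to 19 were named again. Differences near 0 changed sign in these fits, and none of them was called in the main fit. On the log2 scale they ran from -0.021 to 0.087 for Il2rg and -0.58 to 2.766e-05 for Il12rb2 over all cells, and from -0.14 to 0.21 for Ifngr1 in stage 0-like cells. In iNKT2-like cells they ran from -0.028 to 0.096 for Il2rg, -0.34 to 0.83 for Il6ra and -0.092 to 0.19 for Il17rb. In iNKT17-like cells they ran from -0.16 to 0.34 for Il18r1, -0.080 to 0.063 for Il2rg, -0.67 to 0.91 for Il6ra and -0.15 to 0.48 for Il17rb. In iNKT1-like cells they ran from -0.023 to 0.20 for Il18r1, -0.18 to 0.070 for Il2rg, -0.28 to 0.47 for Il4ra, -0.82 to 0.069 for Il17rb and -0.24 to 0.24 for Il7r. Interaction terms ran from -5.43 to 3.37 for Il18r1 and -1.44 to 0.56 for Il17rb (stage 0-like), and from -0.50 to 0.022 for Ifngr1, -0.092 to 0.96 for Il17rb and -0.071 to 0.097 for Il2rb (iNKT2-like). That of Il18r1 in iNKT2-like cells was called without C57BL/6 replicate 1 (-0.46, adjusted p 0.0150). Sign also turned without a correction between libraries for Ifngr1 in stage 0-like (-0.039) and Il6ra in iNKT17-like cells (0.003474), without cluster 14 for Il12rb2 in cycling-like cells (-0.24), and without the late cluster for Il7r in iNKT1-like cells (0.035). Of the single-gene values under an alternative, 552 kept their direction and side of the threshold, 32 changed sign, 29 passed the threshold only there and 19 lost it, and of the counts 65 stayed within 1.5 times, 23 rose and 9 fell. The alternatives without cluster 14 or the interferon-led cluster, those of the lists and of similar genes, and the interactions without a library were chosen after seeing the data. Receptors with few UMIs in a class, such as Il23r outside iNKT17-like cells, were too shallow to be compared.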

Other observations

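Cluster 7, which had no name and was led by Tnni1, Klrb1a and Htra3, held 213 and 34 cells of C57BL/6 and 287 and 386 cells of Hivep3-/- libraries. Of the 5 receptors called in cycling-like cells, 4 differed between genotypes with the same sign in cluster 7 and Ifngr1 did not: Il2rb was at 274 and 221 CPM in C57BL/6 and 780 and 604 CPM in Hivep3-/- cells, Il4ra at 14.3 and 17.0 against 26.4 and 23.9 CPM, Il17rb at 24.9 and 21.8 against 4.01 and 3.94 CPM, and Il18r1 at 67.8 and 72.8 against 28.7 and 22.3 CPM. The libraries of the genotypes did not overlap in these 4 genes. Ifngr1 was at 104 and 82.5 against 89.5 and 86.3 CPM, and Il12rb2, with a positive difference in cycling-like cells, at 21.7 and 26.7 against 7.68 and 7.08 CPM. These differences were not tested. C57BL/6 replicate 2 gave only 34 of these cells, with 91 UMIs of Il2rb, 7 of Il4ra and 9 of Il17rb.

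The B cell-like cluster 15, with 71 cells, had a mean of 329 CPM of Ifngr1, 303 CPM of Il2rb and 51.0 CPM of Il12rb2, next to Cd79a and Klrg1 among its leading genes. Of its cells 46 were in Hivep3-/- replicate 1 and 5 to 10 in each other library. Its libraries ran from 38.8 to 661 CPM of Il2rb and from 0 to 144 CPM of Il12rb2. Gzma and Ccl5, both late iNKT1 markers, were also among its leading genes, so these means cannot be read as levels of B cells. Cluster 13, with 106 cells and a median of 1305.5 UMIs, had the highest mean Il2rb of the 16 clusters, at 1097 CPM from 149, 12, 10 and 8 UMIs in the 4 libraries, and 82 of its cells were in C57BL/6 replicate 1.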
